A study of Mus musculus with 183 samples.

Results

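The mRNAs described here were the 200 longest in a table of 7240 mRNAs bound by RNA decay factors in mouse embryonic stem cells, ranked by the length of the 1 transcript that the authors chose per gene. Genes whose name starts with Hist or Kmt2 were left out by rule, which removed 55 mRNAs, 3 of them long enough to have been members. The 200 members ran from 123179 nt (D10Wsu102e) down to 9626 nt (Zfp236), and the first mRNA outside was Trp53bp1 at 9621 nt. Their median length was 11252.5 nt, against 3095.5 nt over all 7240 mRNAs. Length comes from the annotation and not from any measured value.

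The series used CRAC, in which a protein is crosslinked to RNA by UV light and purified, and the bound RNA fragments are sequenced. Relative binding came from lines with Cre-ERT2 and the biotin ligase BirA at Rosa26, in which SKIV2L, XRN1, MTR4 or AVEN carried a FLAG-Avi tag at its own locus. RNA levels and decay came from 47 libraries of 2 clones, collected 120, 240 or 360 min after actinomycin D, a blocker of transcription, was added, or after 360 min in DMSO (mock). Clone 5F was Rosa26 Cre-ERT2/- Skiv2l fl/fl, and clone 7E was labelled Rosa26 Cre-ERT2/BirA-V6 Skiv2l 3xFLAG-Avi/3xFLAG-Avi Aven-/-, and the labels of its other RNA samples add a floxed Skiv2l. Both were sampled untreated (day 0) and after 4 days of 0.1 uM 4OHT, which activates Cre (day 4), with 3 libraries per group except clone 5F at day 0 and 120 min, which had 2. The methods of the study call the replicates technical, so p-values measure only the spread between these libraries. Each genotype was 1 clone, so clone and genotype cannot be told apart, nor can loss of a gene and 4OHT.

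Cytoplasmic mRNA is degraded from its 5′ end by the exonuclease XRN1 and from its 3′ end by the exosome, to which the helicase SKIV2L of the Ski complex feeds RNA. MTR4 is the matching helicase of the nuclear exosome. AVEN is an RNA-binding protein that associates with the Ski complex. Very long mRNAs come in 2 kinds: some encode giant proteins of the cytoskeleton, the membrane or the ubiquitin system, and others encode ordinary proteins followed by a very long 3′ UTR.

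Library totals ran from 24540658 to 34208466 counts. Markers of embryonic stem cells (8 genes, among them Pou5f1 and Nanog) summed to between 2538 and 3199 CPM (counts scaled to library size) in every mock library. Markers of primitive endoderm (6 genes) summed to 127 to 131 CPM in clone 5F at day 0 and 98.1 to 102 at day 4, but only to 13.0 to 14.0 in clone 7E. Neural markers (4 genes) summed to 120 to 129 and 144 to 155 CPM at days 0 and 4 in clone 5F. In clone 7E they summed to 169 to 182 and 225 to 241 CPM. The rise at day 4 was mainly that of Nes (log2 change 0.605 in clone 5F and 1.45 in clone 7E). Pax6 fell in both clones (-0.302 and -0.323), and Sox1 fell in clone 7E (-2.05). Sox1 in clone 5F (0.142) and Tubb3 in both clones (0.0642 and 0.0752) did not pass an adjusted p of 0.05 (edgeR). Formative markers (5 genes) summed to 491 to 586 CPM in clone 5F and 262 to 278 in clone 7E. Most of this was Dnmt3b (463 and 181 CPM at day 0). Pou3f1 (25.3 and 10.3) and Pim2 (37.8 and 9.37) were also lower in clone 7E at day 0. Otx2 was higher there (38.8 and 64.1), and Fgf5 was similar (2.73 and 2.81). Sums for mesendoderm, trophoblast and feeder fibroblasts stayed at or below 18.7. Skiv2l itself was at 148 ± 0.290 CPM (SD, n = 3) in clone 5F at day 0 and 143 ± 10.4 at the labelled day 4 (log2 change -0.01, adjusted p = 0.914, edgeR). A fall of the targeted gene was thus not detected in the libraries labelled day 4 of clone 5F, although whole-gene counts also cover exons outside the deleted part, and day 4 of this clone is used below as a label only. In clone 7E Skiv2l was at 33.6 ± 2.46 CPM at day 0 and 13.1 ± 0.703 at day 4 (log2 change -1.32, adjusted p = 7.86e-13). Aven was at 35.6 CPM in clone 5F and 2.32 CPM in clone 7E at day 0.

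The coding sequence took at least 50% of the transcript in 117 members, here called coding-dominated, and the 3′ UTR took over 50% in 80, called 3′-UTR-dominated, with 3 in neither class. The median coding sequence was 9129 nt in the first class and 2781 nt in the second, and the median 3′ UTR was 1972 and 8370.5 nt. Over all 7240 mRNAs these medians were 1458 and 993.5 nt. The members were encoded by larger genes (median span 114 kb, against 24.6 kb) with more exons (28 against 10) and lower GC content (46.6% against 50.6%). Chromosome 1 held 30 members, 15% of them, while it held 6.2% of all mRNAs.

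The ends of the coding sequence show how different the architectures were, and are printed for 4 members with the stop codon in capitals (Gencode M21 transcripts, GRCm38). D10Wsu102e, whose product is uncharacterised, has 558 nt of coding sequence followed by 122583 nt of annotated 3′ UTR. Its stop codon lies in the last of 4 exons (chr10:83365893-83365922, + strand):
D10Wsu102e: agtccggcaagtaaaaaaaagaagcagTGA
Chic2, a small palmitoylated membrane protein, had the shortest coding sequence of all members, 498 nt of 9699, with its stop codon in exon 6 of 6 (chr5:75006713-75006742, - strand):
Chic2: ccaaagacaccgatttttcgaccagatTAG
Ttn encodes titin, the giant spring of the sarcomere, and its chosen transcript is coding over all 100404 nt, so that the stop codon in exon 312 of 312 is the last annotated base (chr2:76705031-76705060, - strand):
Ttn: actgtgaatattaatatccgttctatgTAA
Macf1, a crosslinker of actin and microtubules, has 22068 nt of coding sequence and 1256 nt of 3′ UTR (exon 98 of 98, chr4:123350889-123350918, - strand):
Macf1: tcccccaggactccaggtcccaagcgaTAA
Next in length came Dst (23251 nt), a cytoskeletal linker of the same family, Ahnak (18099 nt), a giant scaffold below the plasma membrane, and Mdn1 (17959 nt), an ATPase of ribosome assembly. Tnrc6b (17332 nt), a partner of Argonaute in microRNA silencing, and Strbp (16348 nt), a double-stranded RNA binding protein, were the longest members with a known product and a dominant 3′ UTR. Rnf213 (16716 nt), a ubiquitin ligase with AAA domains, and Zfhx3 (16433 nt), a zinc finger homeobox factor, completed the 10 longest.

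The first comparison asked which decay factor the longest mRNAs were bound by. Relative binding is the pooled CRAC count of 1 protein as a share of the sum over SKIV2L, XRN1 and MTR4, so the 3 shares of an mRNA add to 1, and a rise of 1 share lowers the others. Replicates were pooled by the authors, so no error can be attached to a single value. The longest mRNAs had more MTR4 and less SKIV2L binding than mRNAs at large: the median MTR4 share was 0.418, against 0.319 over all mRNAs, and 168 of the 200 members lay above that overall median. The median SKIV2L share was 0.207, against 0.267, with 142 members below. The XRN1 share was close to the overall one (0.323 and 0.337). MTR4 was the highest of the 3 in 115 members (57.5%, against 35.4% of all mRNAs), XRN1 in 62 (31%, against 38.1%) and SKIV2L in 23 (11.5%, against 26.5%). AVEN binding, given relative to the same sum and able to pass 1, had a median of 0.312, against 0.295.

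These shares followed length across the table. From the shortest to the longest of 10 equal length groups (724 mRNAs each), the median SKIV2L share fell from 0.419 to 0.212 and the median MTR4 share rose from 0.248 to 0.391. XRN1 rose from 0.260 to 0.382 in group 9 and was 0.350 in the longest. Across all 7240 mRNAs, Spearman's rho with transcript length was -0.30 for SKIV2L, 0.17 for XRN1 and 0.20 for MTR4, as a description without a test. Among the 200 members themselves rho with length was 0.13, -0.11 and -0.02, and coding and 3′ UTR length went in opposite directions: rho with the SKIV2L share was 0.27 for coding length and -0.28 for 3′ UTR length, and with XRN1 -0.25 and 0.28.

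**Figure D1:**
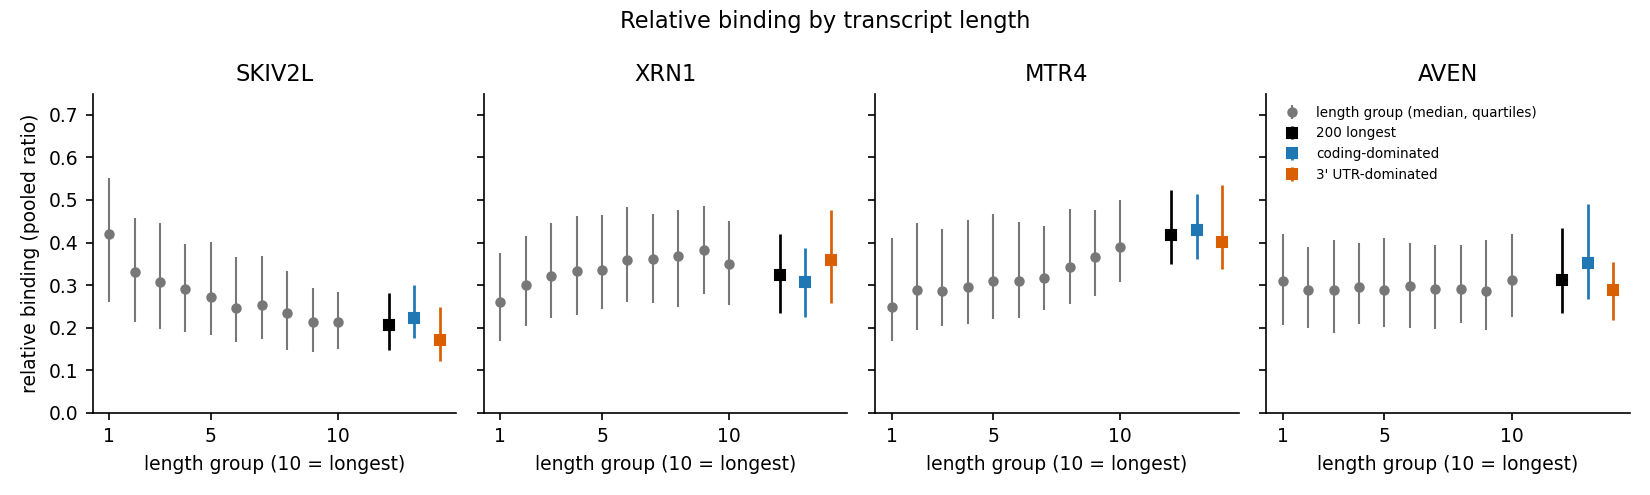
Relative binding of SKIV2L, XRN1, MTR4 and AVEN (y axis, pooled ratio) by length group (grey circles, median and quartiles of 724 mRNAs) and for the 200 longest mRNAs, the 117 coding-dominated and the 80 3′-UTR-dominated ones (squares). The SKIV2L median falls from 0.419 to 0.212 with length, and among the longest it is 0.222 in the coding-dominated and 0.172 in the 3′-UTR-dominated class.

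The XRN1 share was higher, and SKIV2L and AVEN lower, where the 3′ UTR dominated. In the 3′-UTR-dominated members the median shares were 0.359 for XRN1, 0.401 for MTR4 and 0.172 for SKIV2L, and 18 of 80 had an XRN1 share above 0.5. In the coding-dominated members they were 0.306, 0.431 and 0.222, and 4 of 117 had an XRN1 share above 0.5. AVEN binding was 0.351 in the coding-dominated class (quartiles 0.266 and 0.491) and 0.289 in the other (0.219 and 0.354). The quartiles of the classes overlapped for all 4 proteins.

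RNA level moved with these shares. The longest mRNAs were at a median of 8.12 RPKM (reads per kb of transcript, scaled to library size) in the tagged lines, against 21.2 over all mRNAs, and 160 of 200 lay below that overall median. For relative binding the methods of the study kept only mRNAs with a minimum of CRAC counts, which were not divided by length. A long mRNA could therefore enter at a lower level per kb than a short one, and the part of this in the difference was not tested. Over all mRNAs, RPKM correlated with the SKIV2L share at rho 0.56 and with the MTR4 share at -0.46. Among mRNAs of at least 5 RPKM, the medians of SKIV2L, XRN1 and MTR4 were 0.224, 0.332 and 0.404 in 133 members and 0.287, 0.345 and 0.303 in 6344 mRNAs. The authors also deposited shares divided by RNA level relative to another of the lines, and with these the members' MTR4 median was 0.396, against 0.317. The part of RNA level in the difference was not tested.

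The highest SKIV2L shares were in mRNAs of varied architecture. Serbp1, an mRNA-binding protein of the ribosome, had the highest, 0.701 (XRN1 0.115, MTR4 0.184), although 13777 of its 15474 nt are 3′ UTR. It was followed by Dync1h1, the motor chain of cytoplasmic dynein, at 0.579, Hspg2, which encodes the basement membrane proteoglycan perlecan, at 0.559, Prep, a prolyl peptidase, at 0.546, and EPPK1, an epiplakin of the plakin family, at 0.542. The lowest were Dennd5b at 0.0275, Trps1, a GATA-type repressor, at 0.0314, and Dnah8, an axonemal dynein, at 0.0463.

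Ago2, the Argonaute that slices RNA, had the highest XRN1 share, 0.755, with a SKIV2L share of 0.0546 and 11064 nt of 3′ UTR. Lifr, the receptor subunit for the LIF in which these cells are grown, was at 0.628, Tns1, an actin linker at adhesions, at 0.625, Usf3 at 0.612 and Prune2 at 0.607. Frem2, an extracellular matrix protein, was among the lowest at 0.0537.

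Dennd5b, an exchange factor for Rab GTPases, had nearly all of its signal with MTR4 (0.948). Shank1, a postsynaptic scaffold at 0.147 RPKM and the least abundant member, followed at 0.811, then Ttc14 at 0.763, Trio at 0.734 and Unc13a, a priming factor of synaptic vesicles, at 0.722. The lowest MTR4 shares were those of Plec (0.135), Prep (0.157) and Serbp1. Shank1 and Unc13a belong to neurons, and both were at low levels here (0.147 and 1.41 RPKM).

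AVEN binding reached above 1 in 4 members. Ahnak had 1.52, Spen, a corepressor with RNA recognition motifs, 1.24, the Wnt receptor Fzd3 1.12, and Lrp2, the endocytic receptor megalin, 1.09. Plec, which encodes plectin, a linker of intermediate filaments, was at 0.963. Chic2 had the lowest value, 0.0374, followed by the kinase gene Ttbk2 at 0.0468.

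**Figure D2:**
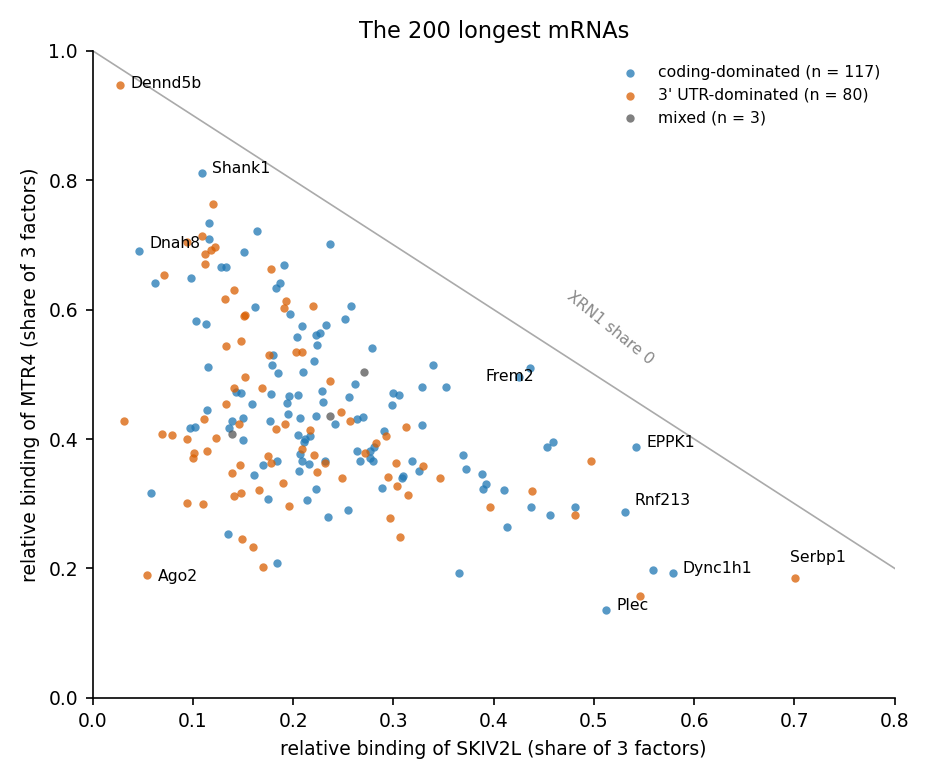
Share of SKIV2L (x axis) against share of MTR4 (y axis) for the 200 longest mRNAs, each a point coloured by architecture. The grey line marks an XRN1 share of 0, and points farther below it have more XRN1. Serbp1 lies at the SKIV2L end (0.701), Dennd5b at the MTR4 end (0.948) and Ago2 near the XRN1 corner (0.755).

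Levels among the members spanned a wide range. Per kb of transcript, Trip12, a ubiquitin ligase, was the most abundant at 204 RPKM, followed by Serbp1 (185), Prrc2c (120), which encodes a stress granule protein, and the ubiquitin system genes Usp9x (79.5) and Huwe1 (75.1). At the other end stood Shank1, Zfhx3 (0.481), Gm38394 (0.550), Ttn (0.799) and EPPK1 (0.946), and 5 members in all were under 1 RPKM. Ttn still had 2085.5 to 2575.3 normalised counts in the 3 mock libraries of clone 5F at day 0, because counts grow with length, and 199 of the 200 members had a mean of at least 100 counts over the 12 mock libraries. In the mock libraries the median member was at 8.25 CPM per kb (7.72 to 8.83 across the 12 libraries), against 19.8 over all mRNAs.

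The main comparison of levels was between day 4 and day 0 of 4OHT in the mock libraries. Counts were scaled by median-ratio size factors and tested by the quasi-likelihood method of edgeR, and p-values were adjusted (Benjamini-Hochberg) over all genes tested. In clone 5F, 105 of the 200 members rose and 6 fell at an adjusted p under 0.05. Over all 16354 genes tested, 12.8% rose and 11.6% fell, and over the 7230 mRNAs of the table tested, 16.5% and 17%. The median log2 change was 0.15 among the members and -0.01 over the mRNAs. All 3 day-4 values lay above all 3 day-0 values in 118 members and below them in 6, while the groups separated in 18.9% of all genes in each direction. The members' share of all counts moved from 3.54 to 3.73% at day 0 to 4.15 to 4.30% at day 4. In bulk RNA, a change in the make-up of the cells and in RNA per cell cannot be told apart. Same-numbered mock libraries deviated together between the clones within a day but not between the days. Any processing batch that followed the day cannot be told apart from day 4 itself.

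Coding-dominated members carried most of this. Of the 117, 81 rose and 1 fell (median log2 change 0.24), while of the 80 3′-UTR-dominated members 23 rose and 5 fell (0.03). Among the members, rho between the log2 change and coding length was 0.62, and between the change and 3′ UTR length -0.56. Over all mRNAs these were 0.30 and 0.01. The change in the members also moved with exon number (rho 0.47) and GC content (0.46), in the 191 with a matched sequence. Over all mRNAs with a matched sequence these were 0.19 and 0.16. The parts of coding length, exon number and GC content were not tested. The shortest length group had 10.5% higher and 25.8% lower calls, and the longest 38.7% and 4.42%. Of 123 mRNAs with a coding sequence of at least 6 kb and a 3′ UTR under 1 kb, limits chosen after the values were seen, 70.7% rose and 0 fell, whereas of 86 with a coding sequence under 2 kb and a 3′ UTR of at least 6 kb, 12.8% rose and 11.6% fell. Scaled on each library's own ERCC spike-ins, which moved the median of all genes by -0.07, 29.5% of the members rose, against 6.49% of genes. The number of lower members was 13 without the libraries of replicate 2 and 3 without those of replicate 3, while lower calls over all genes were 13.2% and 4.68%.

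**Figure D3:**
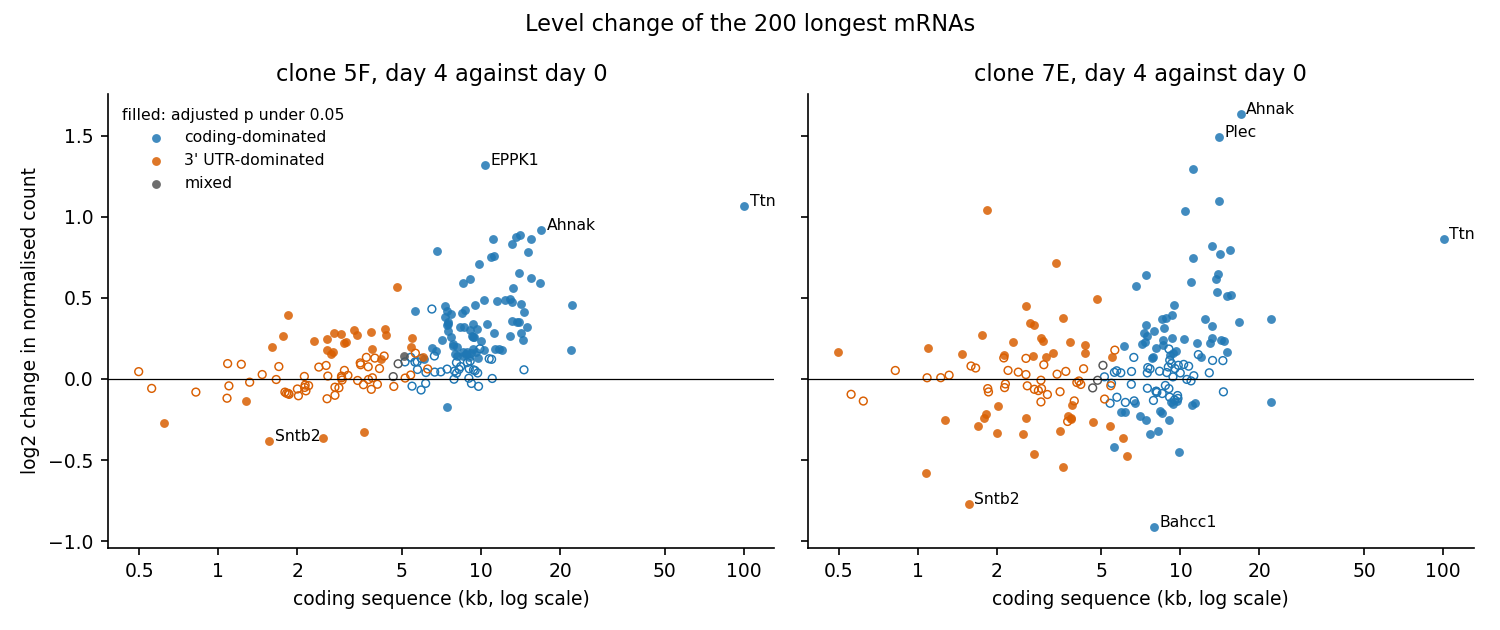
Log2 change at day 4 against day 0 (y axis) by length of the coding sequence (x axis, kb, log scale) for the 200 longest mRNAs in clone 5F (left) and clone 7E (right), with filled points past an adjusted p of 0.05. In clone 5F 81 of 117 coding-dominated members rose, and the change grew with coding length. In clone 7E 51 rose and 19 fell.

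EPPK1 (chr15:76101481-76120195) had the largest change in clone 5F. Its normalised counts were 343.0, 370.1 and 327.8 at day 0 and 897.7, 812.8 and 891.6 at day 4, without overlap (log2 change 1.32 ± 0.07, SE, adjusted p = 2.43e-11). Its gene overlaps BC024139 on the same strand, so reads in the shared part are uncertain. Ttn (chr2:76703980-76982547) was at 2575.3, 2438.3 and 2085.5 at day 0 and at 4778.3, 5185.6 and 4944.4 at day 4 (1.07 ± 0.06, adjusted p = 3.57e-11). Every day-4 library was above every day-0 library, although the muscle protein's mRNA remained rare per kb.

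Ahnak and Plec, both scaffolds of the cell's structure, came next. Ahnak (chr19:8989284-9076914) went from 13072.6, 12540.4 and 11746.2 to 24132.6, 23598.5 and 22901.0 (0.92 ± 0.05, adjusted p = 9.17e-12). Plec (chr15:76170974-76232574), which overlaps Parp10 on the same strand, went from 2859.0, 3400.5 and 2898.5 to 5583.3, 5296.6 and 6111.0 (0.89 ± 0.06, adjusted p = 1.22e-09). Of the 16 members on the list of cytoskeleton and motor genes, 12 rose and 1 fell, while 52.5% of all members rose and 3% fell. Dst rose by 0.46 ± 0.05 (adjusted p = 4.55e-07) and Macf1, the longest of them, by 0.18 ± 0.04 (adjusted p = 0.0039, up to 0.0984 with 1 replicate left out).

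All 3 members on the matrix and adhesion list rose in clone 5F. Lama5 (chr2:180176373-180225859), a laminin chain of basement membranes, was at 9341.5, 11148.1 and 9391.0 at day 0 and at 17734.3, 16970.1 and 19708.0 at day 4 (0.86 ± 0.06, adjusted p = 2.08e-09). Hspg2 (chr4:137468769-137570630) went from 8479.4, 10947.4 and 7995.9 to 15441.8, 15274.7 and 18060.2 (0.83 ± 0.08, adjusted p = 2.29e-07). Primitive endoderm, which makes basement membrane, had lower summed markers at day 4 than at day 0 in this clone (values above), and its part in these changes was not tested. Between Plec and Lama5 in size of change stood Lrp1, an endocytic receptor (0.88 ± 0.08), and Rnf213 (0.87 ± 0.05).

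On the other lists of roles, 10 of 15 chromatin genes, 11 of 18 ubiquitin ligases and deubiquitinases, 6 of 8 transcription factors and Mediator genes, 5 of 9 DNA repair and PIKK kinase genes, 7 of 11 membrane traffic genes, 7 of 14 receptors and channels, 4 of 6 RNA-binding and translation genes and 4 of 6 centrosome and kinetochore genes rose, and none of these members fell. Of 15 signalling kinases, phosphatases and GTPase regulators, 4 rose and 0 fell. Of the 79 members on no list, 32 rose and 5 fell. Over all 200 members 52.5% rose and 3% fell, and over the mRNAs tested 16.5% and 17%. Most lists are small, and differences between them were not tested.

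The 6 members that fell in clone 5F did so by less. Sntb2 (chr8:106935750-107019714), a syntrophin that binds dystrophin, was at 4374.0, 4097.9 and 4053.6 at day 0 and at 3072.6, 3275.6 and 3270.0 at day 4 (-0.38 ± 0.05, adjusted p = 5.69e-06). Bicd1, a dynein adaptor (-0.37 ± 0.07), and Ttll4, which adds glutamate to tubulin (-0.33 ± 0.04), were also lower in every day-4 library. Ebpl (-0.27), Bdp1 (-0.18) and Wdr12 (-0.13) lost their call without replicate 3, and Bdp1 and Wdr12 also without replicate 1. All but Bdp1 were 3′-UTR-dominated.

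In clone 7E, 73 members rose and 40 fell at day 4, against 20.7% and 19.4% of 16333 genes and 21.3% and 25.8% of the mRNAs. The median log2 change was 0.05, against -0.02 over the mRNAs. Here too coding-dominated members rose more often (51 of 117, with 19 lower) than 3′-UTR-dominated ones (22 of 80, with 21 lower), and rho with coding length was 0.34. The longest length group had 30.9% higher and 22.8% lower calls, and the shortest 16.1% and 24.5%. With each library scaled on its own spike-ins, 3 members rose and 194 fell in this clone, against 1.47% and 90.5% of genes. The ratio of gene to spike-in counts was 152 at day 4 and 322 at day 0, and this scaling moved the median of all genes by -1.11. Changes in clone 7E are therefore relative to the median gene. The number of lower members fell from 40 to 17 without the libraries of replicate 1, and lower calls over all genes from 19.4% to 11.8%.

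The largest increases in clone 7E were those of Ahnak, Plec, Lama5 and Lrp2. On the lists of roles, 8 of 16 cytoskeleton and motor genes rose and 3 fell, and all 3 matrix and adhesion genes rose. Ahnak went from 12796.4, 13382.5 and 11244.7 to 40560.3, 37793.2 and 37777.3 (1.63 ± 0.06, adjusted p = 1.75e-16). Plec went from 5185.7, 6230.5 and 5183.2 to 15109.6, 13651.5 and 17910.2 (1.49 ± 0.08, adjusted p = 1.06e-13), and Lama5 from 6880.2, 7574.1 and 6768.5 to 17334.4, 15444.7 and 19196.1 (1.29 ± 0.06, adjusted p = 3.28e-14). The groups did not overlap in any of the 3 genes, which also kept their direction on spike-in scaling (0.54, 0.39 and 0.19). Lrp2 went from 4397.5, 4314.3 and 4107.0 to 9403.0, 8945.9 and 9083.5 (1.10 ± 0.05), and Lpp, a LIM protein of focal adhesions with a long 3′ UTR, rose by 1.04 ± 0.07. These 2 and EPPK1 (1.04), Ttn (0.86) and Hspg2 (0.82) were near or below 0 on spike-in scaling (-0.000247 to -0.27).

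Among the 40 that fell, Bahcc1, a chromatin reader, was at 801.1, 911.7 and 746.7 at day 0 and at 396.4, 375.9 and 529.8 at day 4 (-0.91 ± 0.10, adjusted p = 8.07e-08). Sntb2 fell by 0.77 on the log2 scale, Fut9, which makes the Lewis X antigen of stem cells, by 0.58, Ttll4 by 0.54, Arhgap32 by 0.48, Stox2 by 0.47, the atypical cadherin Celsr3 by 0.45 and Tns1 by 0.42. The call on Tns1 was lost without replicate 1 or replicate 2. Tet1, the dioxygenase that oxidises methylcytosine and a gene of the pluripotent state, went from 20913.4, 21354.3 and 19034.3 to 15305.8, 16121.5 and 16243.3 (-0.36 ± 0.05). Markers of embryonic stem cells summed to 3050 to 3199 CPM at day 0 and 2538 to 2636 at day 4 in this clone, and their part in these changes was not tested.

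In clones 5F and 7E alike, 65 members (32.5%) rose and 5 (2.5%) fell (Ttll4, Wdr12, Sntb2, Bdp1 and Bicd1), against 10.2% and 11.5% of the 7230 mRNAs tested in both. A further 9 (4.5%) rose in clone 5F and fell in clone 7E, among them Macf1, Tet1, Tenm4 and Tns1, and 0 did the opposite, against 0.567% and 0.221% of the mRNAs. In these 4, a call in at least 1 clone was lost when a replicate was left out. The 2 comparisons share no library, but they are not independent. Same-numbered libraries of the clones deviated together on the same day, and size factors were computed over both clones.

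**Figure D4:**
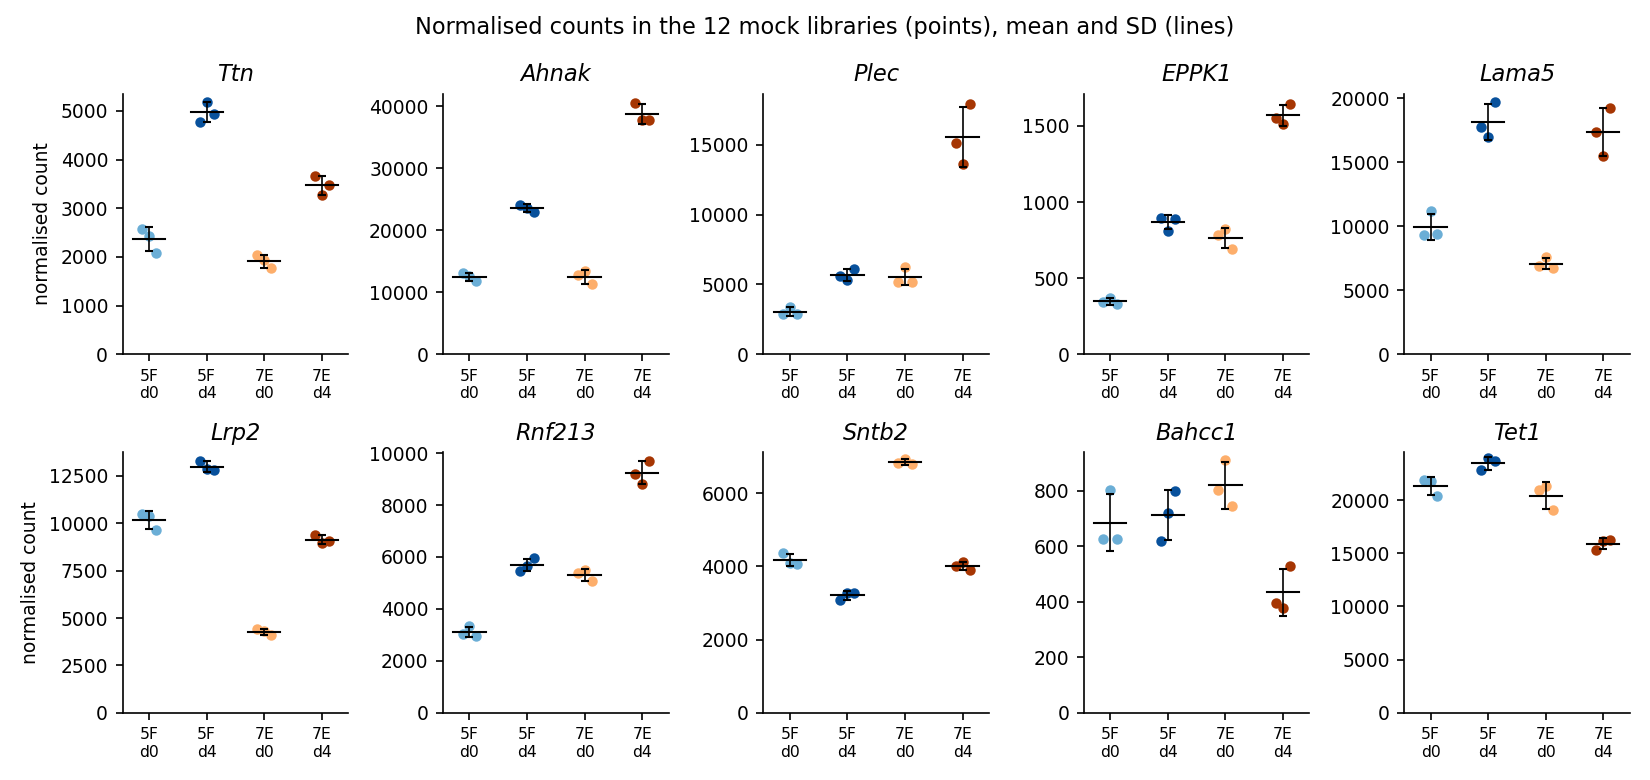
Normalised counts (y axis, from 0) of 10 members in the 12 mock libraries, 3 per group (points), with the mean and SD of each group, for clones 5F and 7E at day 0 (d0) and day 4 (d4). Ahnak and Plec rise in both clones and more in 7E, while Sntb2 is lower at day 4 in both, and Bahcc1 and Tet1 are lower in clone 7E.

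The difference between the clones in the day-4 change was tested itself, as an interaction. It was lower in clone 7E for 43 members and higher for 10, against 5.29% and 6.64% of 17187 genes and 8.44% and 7.29% of the mRNAs. The median difference was -0.11 among the members and -0.01 over the mRNAs. Coding-dominated members made up 30 of the 43, and chromatin genes 6 (of 15). With the replicate number within each day as a block, since same-numbered libraries of the clones deviated together on the same day, 97 members were lower and 21 higher, against 11.8% and 12.4% of genes, at a median of -0.11. Without the libraries of replicate 1 the counts were 12 and 5, against 1.62% and 2.74% of genes, and the median was -0.115 with and without them. On spike-in scaling all 200 were lower in clone 7E, as were 83.9% of genes.

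At day 0 the clones also differed. Against clone 5F, 82 members were higher and 37 lower in clone 7E, while 20.1% and 19.8% of 16257 genes were, and 28.5% and 21.4% of the mRNAs, and this comparison shares its day-0 libraries with those above. With the replicate block, which pairs same-numbered libraries of the clones, 98 members were higher and 53 lower, against 24.8% and 25.1% of genes. On spike-in scaling 20% of the members were higher and 40.5% lower, against 9.86% and 38.4% of genes. The members' median was then -0.082 in place of 0.079, while the median of all genes moved to -0.17. Tenm4, a teneurin of neuronal wiring, was at 1395.3, 1518.9 and 1378.8 in clone 5F and at 3311.5, 3441.6 and 3252.1 in clone 7E (1.22 ± 0.05, adjusted p = 1.68e-15). EPPK1 (1.14), the cholesterol exporter Abca1 (1.09), Stox2 (1.07), Prrc2c (0.89), Plec (0.86), Rnf213 (0.77) and the Ras regulator Rasal2 (0.74) were higher too. Lrp2 was at 10508.4, 10385.8 and 9624.9 in clone 5F and at 4397.5, 4314.3 and 4107.0 in clone 7E (-1.25 ± 0.04, adjusted p = 1.43e-16). Lrp2 is a marker of visceral and primitive endoderm, and the primitive endoderm list summed to 127 to 131 CPM in clone 5F and 13.0 to 13.7 in clone 7E at day 0, and its part was not tested. Dnah8 (-0.94), Lpp (-0.81), Pgap1 (-0.55), Braf (-0.53), Lama5 (-0.49), Nbea (-0.49) and Bicd1 (-0.41) were lower as well.

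Half-lives were computed from a line through ln(normalised count + 1) over 0 to 360 min, scaled with 1 spike-in factor per time point. The longest mRNAs were somewhat shorter lived than mRNAs at large: in clone 5F at day 0 the median half-life was 247 min (quartiles 178 and 339), against 287 min (182 and 435) over all mRNAs. Computed from single replicates, the members' median was 255, 235 and 245 min (SD 10.2). At day 4 it was 229 min in clone 5F (SD between replicates 25.4). In clone 7E it was 245 min at day 0 (SD 11.8) and 234 min at day 4 (SD 34.3). On each library's own spike-ins the members' medians at days 0 and 4 were 254 and 225 min in clone 5F. In clone 7E they were 250 and 258 min, so the direction between the days turned there. Over all mRNAs these were 297 and 277 min in clone 5F and 293 and 321 min in clone 7E. Of the mock level, the median member kept 58.8%, 45.1% and 36.3% after 120, 240 and 360 min in clone 5F at day 0, against 61.0%, 49.1% and 41.3% over all mRNAs. The curves were steeper early than late, and the median was 157 min from mock and 120 min alone and 349 min without the mock libraries.

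Median half-life fell from 420 min in the shortest length group to 244 min in group 8, and was 250 min in the longest. Coding-dominated members had a median of 267 min and 3′-UTR-dominated ones of 209 min in clone 5F at day 0 (258 and 215 min in clone 7E). By role, the members on the signalling list (171 min, n = 15), the transcription factor list (181 min, n = 8) and the chromatin list (198 min, n = 15) had the shortest medians in clone 5F at day 0. RNA-binding genes (343 min, n = 6), the 3 matrix genes (338 min), receptors and channels (311 min, n = 14) and the cytoskeleton (303 min, n = 16) had the longest. In clone 7E at day 0 these 4 lists were at 329, 241, 336 and 273 min in the same order, against 245 min over all members. The place of the matrix genes thus did not hold there.

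The shortest-lived member was Zfp292, a zinc finger gene, with a half-life of 85.8 min (81.7 to 90.3 within 1 SE of the slope) in clone 5F at day 0, where 24.8%, 11.7% and 5.24% of the mock level remained at 120, 240 and 360 min. Tsc22d2 (89.6 min), Ino80d, a subunit of the INO80 chromatin remodeller (92.5), the zinc finger gene Zfp26 (92.8), Csrnp3 (101), the kinase Map3k2 (101), Med13, of the kinase module of Mediator (102), and Mars2, the mitochondrial methionyl-tRNA synthetase (105), completed the 8 shortest. All of these except Csrnp3 were below 120 min in each of the 4 conditions, which held for 7 of the 200 members.

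Rnf213 had the longest half-life there, 942 min, with an interval of 1 SE from 711 to 1399 min, and 97.6%, 85.6% and 77.7% remained. At day 4 its half-life was 387 min, and in clone 7E it was 495 and 313 min. Sorl1, a sorting receptor (906 min), the ephrin receptor Ephb2 (904), Frem2 (818), the endocytic adaptor Itsn1 (793), Dnah8 (608), Lrp1 (606) and the deubiquitinase Usp15 (573) followed. Dmd, Itsn1, Usp15 and Ephb2 exceeded 480 min in all 4 conditions. Ttn kept 97.9% of its mock level at 120 min and 54.0% at 360 min (half-life 389 min), and D10Wsu102e 51.7% and 24.3% (179 min).

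The number of exons and of Pumilio-type sites moved with half-life among the members. Pumilio proteins bind short motifs in 3′ UTRs and recruit deadenylases, and the motif searched was TGTANATA, on the sense strand of the 3′ UTR, in the 191 members and 6725 mRNAs whose sequence matched the annotated length. It occurred in 118 of the 191 (61.8%) and in 26.3% of all mRNAs, at 0.250 and 0.255 sites per kb of 3′ UTR, so that the longer 3′ UTRs held more sites at the same density. Members with 0 sites had a median half-life of 300 min (n = 73), those with 1 to 2 sites 230 min (n = 89) and those with 3 or more 173 min (n = 29). In the 3′-UTR-dominated class these medians were 183, 226 and 178 min, without such an order, whereas in the coding-dominated class they were 323, 236 and 160 min. Over all mRNAs they were 318, 226 and 172 min. A match is a description of letters, not of a bound site.

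For the shortest-lived members that had the motif, 1 occurrence is printed with the motif in capitals and 11 bases on either side (GRCm38). All lie in the 3′ UTR and the last exon, that of Zfp292 at chr4:34804741-34804770 (- strand), of Ino80d at chr1:63056293-63056322 (-), of Csrnp3 at chr2:66031350-66031379 (+), of Med13 at chr11:86269650-86269679 (-) and of Mars2 at chr1:55245357-55245386 (+):
Zfp292: acttcagttatTGTAAATAattgagttaag
Ino80d: agcaggcattcTGTAGATActacgtgcctg
Csrnp3: gtatgtatgtgTGTATATAtatatacatgt
Med13: tcaaactgtggTGTAAATAgatcctcagtg
Mars2: acttcctatgtTGTATATAaaagcagatgt
Zfp292 has 4 such sites in 1848 nt of 3′ UTR and Ino80d 7 in 10182 nt. Tsc22d2 and Zfp26, with half-lives as short, have 0. In the 16 members with the 8 shortest and 8 longest half-lives, of which 15 had sequence, the sites numbered 17 (0.351 per kb) and 6 (0.179 per kb), and the pentamer ATTTA, the core of AU-rich elements, 137 (2.83 per kb) and 37 (1.10 per kb).

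Exon number gave the other order. Members with 1 to 10 exons had a median half-life of 197 min (n = 30), those with 11 to 30 exons 214 min (n = 74) and those with 31 or more 308 min (n = 87). Across the 191 members rho between exon number and decay rate was -0.46, and across all mRNAs -0.20. Among the members the decay rate also moved with the SKIV2L share (rho -0.33) and the XRN1 share (0.24), and much less with MTR4 (0.08). The half-lives were shorter where XRN1 was the highest share (209 min, n = 62) than where SKIV2L was (320 min, n = 23), with MTR4 between them (248 min, n = 115).

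**Figure D5:**
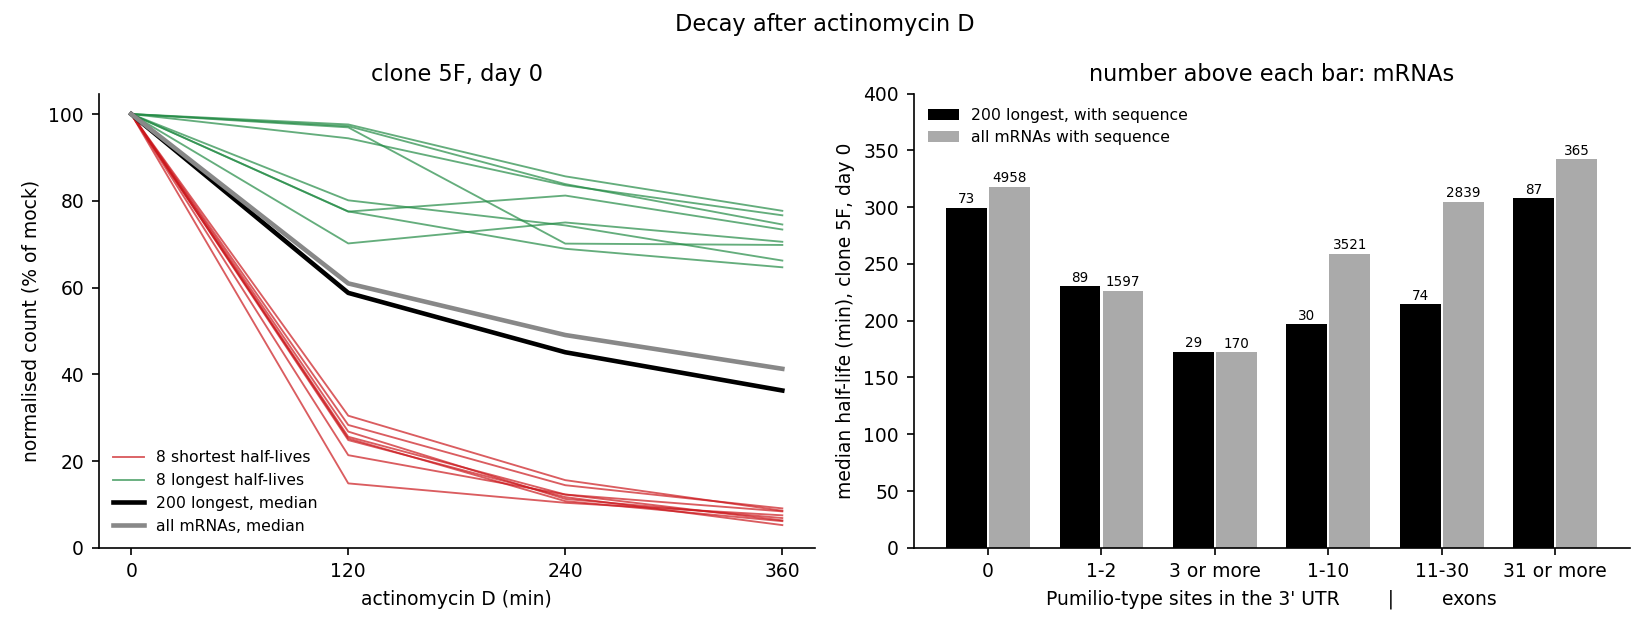
Left, percent of the mock level (y axis) at 0 to 360 min of actinomycin D (x axis) in clone 5F at day 0, for the 8 members with the shortest and the 8 with the longest half-lives (thin lines) and the medians of the 200 members and of all mRNAs (thick lines). Right, median half-life (y axis, min) by number of Pumilio-type sites in the 3′ UTR and of exons, for the members (black) and all mRNAs (grey) with a matched sequence. It falls from 300 to 173 min with sites and rises from 197 to 308 min with exons in the members.

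Whether decay changed relative to the median gene was tested as an interaction of time with day or clone, in log2 units per h. A shift in decay shared by all genes was removed by the scaling and cannot be seen in these tests. By edgeR with adjustment over all genes, 0 of the 200 members passed in clone 5F between day 4 and day 0, where 0.13% of 19251 genes had a slower and 0.0571% a faster loss (0.235% and 0.124% of the mRNAs). In clone 7E 0 passed, against 0.378% and 0.426% of 18541 genes (0.498% and 0.774% of the mRNAs), and 0 passed between the clones at day 0, against 0.0265% and 0.00531% of 18846 (0.0691% and 0.0138% of the mRNAs). Of the difference between the clones in the change, 0 of 200 members and 0% of 20137 genes passed. In simulated counts, planted slope changes of 0.25 log2 units per h were recovered in 80.5%, 83%, 79.5% and 58.5% of 200 genes, in the same order. A change of this size is close to the whole decay rate at the members' median half-life (247 min in clone 5F at day 0). Even such large changes, and more so smaller ones, could therefore be missed. At an unadjusted p under 0.05 the members numbered 12, 14, 4 and 0 in these 4 comparisons (6%, 7%, 2% and 0%), against 3.86%, 8.51%, 4.67% and 2.8% of genes. DESeq2 called 1 member slower and 3 faster in clone 7E, against 0.507% and 0.841% of genes, and 0 in the other comparisons.

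The members nearest to a call were few. Rnf213 lost 0.09 more log2 units per h at day 4 of clone 5F (-0.09 ± 0.03, adjusted p = 0.276), and in clone 7E Brca2, of homologous recombination, was at -0.08 ± 0.02 (adjusted p = 0.0511) and the phosphatase Ptpn14 at 0.15 ± 0.04 (adjusted p = 0.0638). In clone 5F the estimate was positive, meaning slower loss at day 4, in 53 members (26.5%), against 47% of the mRNAs, with a median of -0.013 per h against -0.002. Without the mock libraries that median was 0.012, so its direction rests on the mock libraries.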

How the data were processed

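The authors deposited a table of 7240 mRNAs with relative binding from pooled CRAC replicates, as a fraction of the sum of 3 proteins for SKIV2L, XRN1 and MTR4 and as a ratio to that sum for AVEN, beside RPKM values of the tagged lines. Half-life scores in min, which the authors made from slopes of spike-in scaled counts, were used only as an alternative. They also deposited whole-number counts per gene and ERCC spike-in for 47 libraries (STAR 2.5.0a, GRCm38, Gencode M16, uniquely mapped reads; the strand setting is not given in the sources used here). Fold changes and p-values of the authors' own comparisons in the same table were not used, and no value of them is given.

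Counts were scaled by median-ratio size factors. Levels in the 12 mock libraries and slopes over time were tested with edgeR 4.0.16 (quasi-likelihood, R 4.3.3), adjusted by Benjamini-Hochberg over all genes that passed the filter on low counts. For half-lives, counts were divided by 1 factor per time point (0.649, 0.531 and 0.438 at 120, 240 and 360 min) from 34 of 92 spike-ins, and ln(count + 1) was regressed on time. Intervals of half-lives are 1 SE of the slope. Transcript sequences came from Gencode M21 and were used for 191 members whose lengths matched. Scripts were tested on simulated counts.

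Named members were the 10 longest and those at the length limit, the 5 with the shortest and the 5 with the longest coding sequence, the 5 highest and 3 lowest for each protein's binding, the 8 shortest and 8 longest half-lives in clone 5F at day 0 (mean of at least 100 counts), the 5 highest and 5 lowest RPKM, and the 3 most abundant of each role list. For each test they were the 8 largest called changes in each direction that averaged 100 counts or more and whose direction held whichever replicate was dropped. Not all of these are printed. Members outside these that the text names were chosen after their values were seen. The members and lists were chosen with earlier results of these data known. Library totals of 24540658 to 34208466 counts set the counting error. Alternatives were other scalings, tools and filters, a replicate block, each replicate left out, other time points and other length rules. Same-numbered libraries deviated together between the clones on the same day: at equal times their deviations from the group means correlated at 0.128 to 0.845 (11 of 11 pairs above 0.1) at day 0 and at 0.226 to 0.867 (12 of 12) at day 4. The numbers were therefore taken to pair the clones within a day. Between days of 1 clone 0 of 6 mock pairs were above 0.1, and the numbers were not taken to pair the days. A block of replicate number within each day was added for the difference between the clones after seeing the data.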

Additional observations from a re-analysis of the deposited data

Results flagged for a closer look

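The level change at day 4 differed between clones 7E and 5F for 16 named members, by an interaction term in edgeR's quasi-likelihood test with adjustment over all genes. The values are log2 changes in clone 7E minus those in clone 5F, with 3 libraries per group.

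The change was higher in clone 7E for Lrp2 (0.74, adjusted p = 9.37e-09), Ahnak (0.71), Lpp (0.64), Plec (0.60), Sh3pxd2a, a scaffold of podosomes (0.44), Lama5 (0.43), the phosphatase Ptpn14 (0.41) and the Arf regulator Agap1 (0.37). It was lower in clone 7E for Bahcc1 (-0.96, adjusted p = 0.000254), Tns1 (-0.84), Zfhx2, a zinc finger homeobox factor (-0.74), Celsr3 (-0.64), Srcap, a chromatin remodeller (-0.63), Tenm4 (-0.62), Arhgap32 (-0.54) and Tet1 (-0.50). Without the libraries of replicate 1, Sh3pxd2a, Lama5, Agap1, Zfhx2 and Celsr3 lost their call with values of 0.48, 0.44, 0.35, -0.80 and -0.66, near those above. With the replicate number within each day as a block, all 16 kept direction and call.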

How the results depend on the processing

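Of 512 alternatives to 62 values of 36 named members, other than spike-in scaling, 499 kept direction and call, 13 lost the call and 0 reversed. With each library's own spike-ins, in percent of members, 29.5 rose in clone 5F, 1.5 rose and 97 fell in clone 7E, 20 were higher and 40.5 lower between the clones, and 0 rose and 100 fell in the difference of changes. In percent of genes these were 6.49, 1.47 and 90.5, 9.86 and 38.4, and 0.298 and 83.9. The members' medians then were -1.05 (clone 7E) and -0.082 (between the clones). The change in clone 7E reversed for Lrp2 (-0.000247), Lpp (-0.057), EPPK1 (-0.061), Ttn (-0.23) and Hspg2 (-0.27). The difference between the clones reversed for Lrp2 (-0.28), Ahnak (-0.31), Lpp (-0.38), Plec (-0.43), Sh3pxd2a (-0.59), Lama5 (-0.60), Ptpn14 (-0.62) and Agap1 (-0.66). These values hold the shift of all genes (-1.11 in clone 7E), and the cause of that shift was not tested.

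Leaving out each replicate gave 1.5 to 6.5% lower in clone 5F, 8.5 to 23% lower in clone 7E (8.5 without replicate 1), and 2.5 to 5.5% higher and 6 to 16.5% lower in the difference (2.5 and 6 without replicate 1). Over all genes these ranges were 4.63 to 13.2%, 11.8 to 17.0%, 2.74 to 4.77% and 1.62 to 3.58%. With the replicate block, 42.5% rose and 2.5% fell in clone 5F, 32% and 15.5% in clone 7E, 49% and 26.5% differed between the clones, 4.5% and 21% in the difference, and 0% in decay. In that order, shares of all genes were 10.2% and 7.97%, 19.3% and 17.5%, 24.8% and 25.1%, and 6.21% and 4.99%. In decay they were at most 0.324%. The block pairs libraries in the comparison of the clones, not in that of the days. With the replicate block within each day, added after seeing the data, the difference had 10.5% higher and 48.5% lower (genes 12.4% and 11.8%). All 16 named members kept their call, and 0% of members were called in decay.

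For other length rules, the 100 longest had 0% lower in clone 5F and half-lives of 267 (clone 5F) and 260 min (clone 7E) at day 0. Lower calls over all genes were 11.6% in clone 5F and 19.8% between the clones. The 200 longest by coding length had 1% lower in clone 5F, 12% lower between the clones, a SKIV2L median of 0.255, an AVEN median of 0.385 and half-lives of 279, 262, 273 and 272 min in clone 5F at days 0 and 4 and clone 7E at days 0 and 4. In that order half-lives were 349, 358, 355 and 403 min without the mock libraries, and 157, 122, 146 and 122 min from mock and 120 min alone. The half-lives as the authors deposited them had a median of 260 min in clone 5F at day 0. For decay in clone 7E, DESeq2 called 0.5% slower and 1.5% faster, against 0.507% and 0.841% of genes. Without the mock libraries 1% and 0.5% of members were called, against 0.834% and 0.588% of genes. Beyond the constructions named, the cause of these differences was not tested.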
